A study of Mus musculus with 10 samples.

Results

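The genes examined were the 3 pocket protein genes and 7 genes of the DREAM/MuvB complex and its activator partners, found in the count file by the Ensembl identifiers that map to the symbols Rb1, Rbl1, Rbl2, Lin9, Lin37, Lin52, Lin54, Rbbp4, Mybl2 and Foxm1. They are 10 of the 48795 genes listed, and all 10 passed the filter on low counts that left 12859 genes for testing. RNA-seq was carried out on neural stem and progenitor cells (NSC/NPCs) cultured from the brain subependymal zone of mice aged 10 weeks. WT proliferating neurospheres were harvested at 3 days in vitro (DIV) in 20 ng/ml EGF and 10 ng/ml FGF (WT PRO, 3 libraries), and WT differentiating cells after 2 days attached to Matrigel with FGF followed by 1 day (24 h) without mitogens in 2% FBS (WT DIFF, 3 libraries, called 2 + 1 DIV). The same stages were sampled from cultures labelled Cdkn1b (p27KO), with 2 libraries each. According to the methods, such cultures came from Cdkn1b mutant mice on a C57BL/6J background. PRO and DIFF therefore differed in attachment, mitogens and serum at once, and these cannot be told apart.

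Totals ranged from 19190068 to 25291674 counts per library. Transcripts of Cdkn1b, the targeted gene that encodes the CDK inhibitor p27, were not lost in the libraries labelled p27KO. Their level was 114 and 90.7 CPM (counts scaled by library size) in neurospheres and 140.2 and 137 CPM at 2 + 1 DIV, against 103 to 112 and 205 to 209 CPM in WT. The free-text descriptions of these samples also name WT cells, so that every direction drawn from them rests on their titles and genotype field. Xist was at 2258 to 3595 CPM in the libraries labelled p27KO and at 1.16 to 2.57 CPM in WT libraries, and the sum of 4 Y-linked genes was at most 0.585 CPM and at least 189 CPM respectively, so that genotype and sex cannot be told apart. All 6 markers of NSC/NPCs were detected, and their sum ranged from 2990 to 3906 CPM in neurospheres and from 1621 to 1794 CPM at 2 + 1 DIV. Those of astrocytes summed to 117 to 229 CPM in neurospheres and 477 to 1045 CPM at 2 + 1 DIV, and none of 4 microglial markers reached 1 CPM. In bulk samples, fewer cells of a type and less RNA per cell cannot be told apart.

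Pocket proteins are named for the fold that holds E2F transcription factors. RB, the product of Rb1, mainly binds the activator E2Fs until cyclin-dependent kinases (CDKs) phosphorylate it. Its relatives p107 (Rbl1) and p130 (Rbl2) instead bring the repressors E2F4 and E2F5, with a DP partner, to the MuvB core of LIN9, LIN37, LIN52, LIN54 and RBBP4. The resulting DREAM complex keeps cell cycle genes silent in quiescent cells. When cells cycle, MuvB leaves the pocket protein and binds B-MYB (Mybl2) and then FOXM1, which turn on genes of G2 and mitosis. In the subependymal zone, the balance between quiescence, cycling and cell cycle exit sets the output of new neurons and glia.

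Promoters of members that moved in opposite directions are printed here, each as the 250 bases before its RefSeq start in GRCm38.p6. Of the 10 genes, 7 matched an entry of the promoter table, with 8 promoters. Rb1, Lin9 and Foxm1 had no entry, so no motif was searched in them. Capitals mark the letters TTTCGCGC, TTTGGCGC, TTTCCCGC or TTTGCCGC (E2F), and GGCGGGA, a shorter E2F form that was added after the sequences were seen. Capitals also mark TTTGAA, the cell cycle homology region, as well as the variants of it that read TTCGAA and, more loosely, TTTAAA. The motif CCAAT is that of NF-Y and TAACNG that of MYB, and all were searched on both strands. Rbl1, at chr2:157204535-157204784 on the minus strand, and Mybl2, at chr2:163054385-163054634 on the plus strand, fell at 2 + 1 DIV. Rbl2, at chr8:91069807-91070056 on the plus strand, rose, and so did Lin52, for which only the 30 bases around its E2F match are printed (chr12:84451470-84451499, plus strand).
Rbl1: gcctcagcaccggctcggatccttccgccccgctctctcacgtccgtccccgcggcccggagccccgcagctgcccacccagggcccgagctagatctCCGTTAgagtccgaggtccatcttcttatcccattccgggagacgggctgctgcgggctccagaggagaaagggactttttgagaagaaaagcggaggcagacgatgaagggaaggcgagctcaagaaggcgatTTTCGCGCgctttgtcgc
Mybl2: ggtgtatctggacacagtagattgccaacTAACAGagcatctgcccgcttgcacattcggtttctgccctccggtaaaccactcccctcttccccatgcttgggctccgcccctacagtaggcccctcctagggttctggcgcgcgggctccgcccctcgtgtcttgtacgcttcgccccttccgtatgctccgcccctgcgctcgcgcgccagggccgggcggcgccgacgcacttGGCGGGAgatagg
Rbl2: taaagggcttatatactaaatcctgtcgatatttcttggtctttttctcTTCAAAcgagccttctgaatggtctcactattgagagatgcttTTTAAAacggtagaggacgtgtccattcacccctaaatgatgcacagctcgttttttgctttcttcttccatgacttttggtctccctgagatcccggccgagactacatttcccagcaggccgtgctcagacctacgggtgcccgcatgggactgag
Lin52: cggatcctcgcTTTCCCGCCgacggttggt

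In the Rbl1 promoter, TTTCGCGC lay from -18 to -11, where -1 is the base just before the start. These letters stood in 0.256% of all 32851 promoters of the table. Lin52 held TTTCCCGC, found in 0.895% of promoters, from -27 to -20 before its RefSeq start, with GGCGGGA overlapping it on the opposite strand. The Lin52 match begins 59 bases after the start of the gene in GENCODE M21, inside its first annotated exon. So one gene that fell and another that rose held a match to the 4 E2F motifs, which stood in 1.86% of promoters together. Mybl2 held none of the 4 but GGCGGGA from -13 to -7. GGCGGGA also stood in Lin37, Lin52 and the Lin54 promoter at chr5:100498574-100498823, and in 9.75% of all promoters. The other Lin54 promoter, at chr5:100500640-100500889, held none of the motifs. In Rbl2, the matches were TTTGAA on the opposite strand (16.0% of promoters) and TTTAAA (12.1%), with no E2F match in this window. Its GC content was 46.8%, against 63.6% in Rbl1, 65.6% in Mybl2 and a median of 52.4% over all promoters. TTTGAA also stood on the gene strand in Lin37, from -197 to -192, and in the Lin54 promoter with GGCGGGA, from -162 to -157. CCAAT, in 33.8% of promoters, was found in Lin37, Lin52, Lin54 and Rbbp4, and TAACNG, in 19.8%, in Mybl2 and Rbl1. A match is a description of the letters and was not tested as a binding site.

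At the onset of differentiation in WT cultures, 9 of the 10 genes changed. The pocket protein genes moved apart, with Rb1 and Rbl2 UP and Rbl1 DOWN. Of the MuvB core, Lin9, Lin54 and Rbbp4 were DOWN, Lin52 was UP and Lin37 was not called. Both activator partners were DOWN, and their changes were the largest of the 10, at 17.3-fold for Mybl2 and 9.44-fold for Foxm1. The 3 genes UP stand beside 33.5% of all tested genes called UP and the 6 genes DOWN beside 33.9% called DOWN, by edgeR's quasi-likelihood test with a Benjamini-Hochberg adjusted p under 0.05. In the libraries labelled p27KO, the call was the same for each of the 10 genes, with 3 UP (27.5% of all genes) and 6 DOWN (30.2%). The median log2 fold change over the members was -0.96 in WT and -0.88 in the libraries labelled p27KO, against -0.0019 and -0.029 over all genes.

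**Figure D1:**
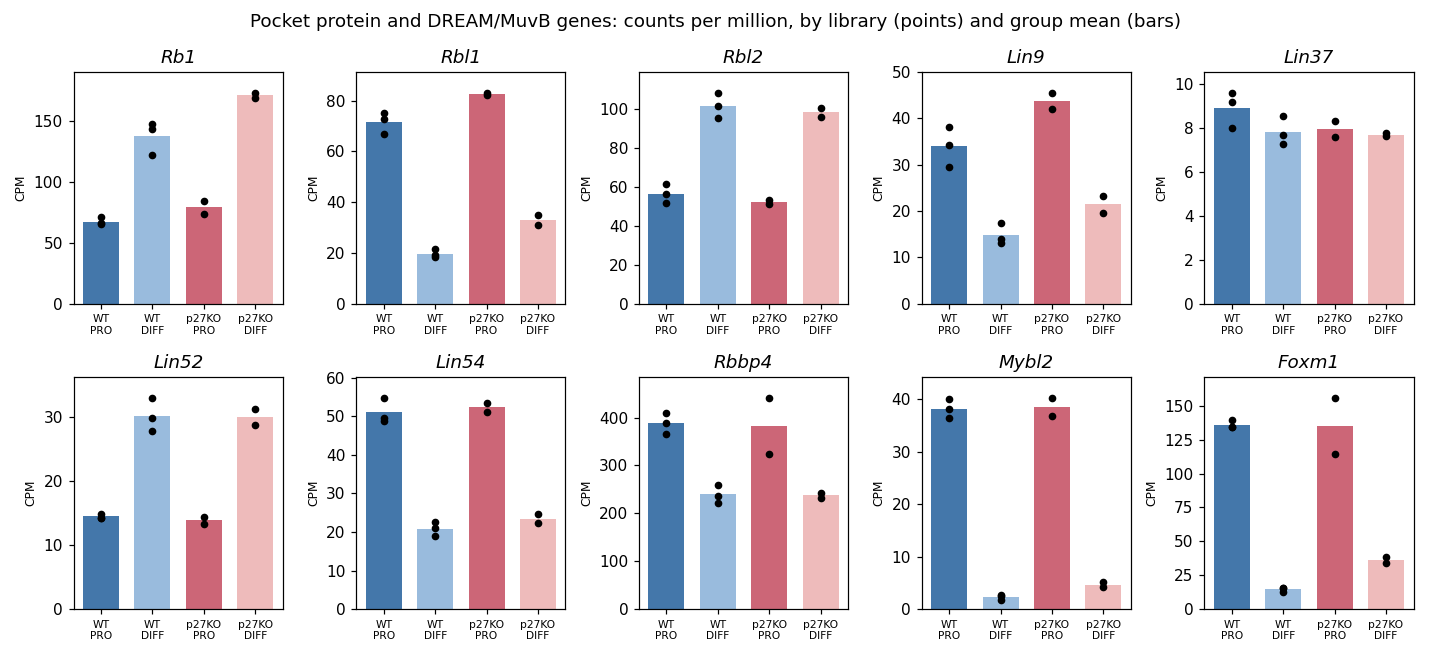
Level in CPM (linear axes from 0) of the 10 genes, with 1 point per library and bars at the group mean for WT PRO, WT DIFF, p27KO PRO and p27KO DIFF. Points of PRO and DIFF are apart within each genotype for every gene except Lin37. Foxm1, Mybl2, Rbl1, Rb1 and Lin9 have higher points in p27KO DIFF than in WT DIFF, of which Rb1 and Lin9 were not called. The share of all tested genes with points apart was not counted.

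Rb1 (ENSMUSG00000022105; GRCm38 chromosome 14, 73183673 to 73325822, minus strand) encodes RB, the founding pocket protein. Its level was 65.3, 71.1 and 66.0 CPM in WT PRO and 122, 148 and 143 CPM in WT DIFF. In the libraries labelled p27KO it was 84.5 and 74.0 CPM in PRO and 173 and 169 CPM in DIFF. Every DIFF library was thus above every PRO library of both genotypes. The log2 fold change was 1.02 (SE 0.09, 2.03-fold, adjusted p = 7.6e-06, edgeR) in WT and 1.09 (SE 0.11, adjusted p = 3.7e-05, edgeR) in the libraries labelled p27KO. Exons of Lpar6 and Rcbtb2 on the opposite strand overlap the gene. In WT, the log2 fold change of Lpar6 was -1.02 and that of Rcbtb2 was 0.31, and the sources used here do not say whether counting used strand.

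Rbl1 (ENSMUSG00000027641; chromosome 2, 157145893 to 157204534, minus strand) encodes p107, the pocket protein best known from cycling cells, and moved the opposite way. Its level was 66.9, 72.8 and 75.3 CPM in WT PRO and 19.3, 18.3 and 21.6 CPM in WT DIFF. The libraries labelled p27KO had 83.0 and 82.0 CPM in PRO and 34.9 and 31.0 CPM in DIFF. All DIFF libraries were below all PRO libraries, and the 2 DIFF libraries labelled p27KO lay above the 3 of WT. Its log2 fold change was -1.87 in WT (SE 0.09, 3.66-fold lower, adjusted p = 1.6e-07, edgeR). With p27KO it was -1.35 (SE 0.11, 2.55-fold lower, adjusted p = 8.5e-06, edgeR).

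Rbl2 (ENSMUSG00000031666; chromosome 8, 91070057 to 91123844, plus strand) encodes p130, the pocket protein that predominates in the DREAM complex of quiescent cells. It had 51.4, 61.5 and 56.4 CPM in WT PRO, and 95.1, 108 and 101 CPM in WT DIFF. Libraries labelled p27KO had 53.3 and 51.1 CPM in PRO and 95.6 and 100.4 CPM in DIFF. The genotypes overlapped at both stages and the stages did not overlap. Log2 fold changes were 0.84 (SE 0.09, 1.79-fold, adjusted p = 1.9e-05, edgeR) in WT and 0.88 (SE 0.11, adjusted p = 9.3e-05, edgeR) for p27KO. Exons of Aktip on the opposite strand overlap Rbl2, and Aktip also rose in WT, with a log2 fold change of 0.93.

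Taken per kilobase of merged exons, the makeup of the pocket protein transcripts shifted with stage. In WT PRO, Rbl1 made up 39.0% ± 1.37, Rb1 36.6% ± 1.14 and Rbl2 24.3% ± 0.90 of the 3 genes' counts per kilobase (SD, n = 3). In WT DIFF, Rb1 made up 57.7% ± 1.37, Rbl2 33.9% ± 1.07 and Rbl1 8.34% ± 0.92 (SD, n = 3). Rbl1 therefore went from a share like that of Rb1 to the smallest of the 3. At 2 + 1 DIV in the libraries labelled p27KO, Rb1 made up 60.6% ± 0.36, Rbl2 27.6% ± 1.23 and Rbl1 11.7% ± 0.87 (SD, n = 2). The ratio of Rbl2 to Rbl1 per kilobase went from 0.625 ± 0.040 to 4.10 ± 0.51 in WT (SD, n = 3) and from 0.501 ± 0.011 to 2.37 ± 0.28 in the libraries labelled p27KO (SD, n = 2). The sum of the 3 genes was 30.6 ± 1.67 CPM per kilobase in WT PRO and 39.6 ± 3.12 in WT DIFF. With the length of the longest transcript in place of the merged exons, which was added after seeing the data, the shares in WT PRO were 36.2% for Rbl1, 35.6% for Rb1 and 28.1% for Rbl2.

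**Figure D2:**
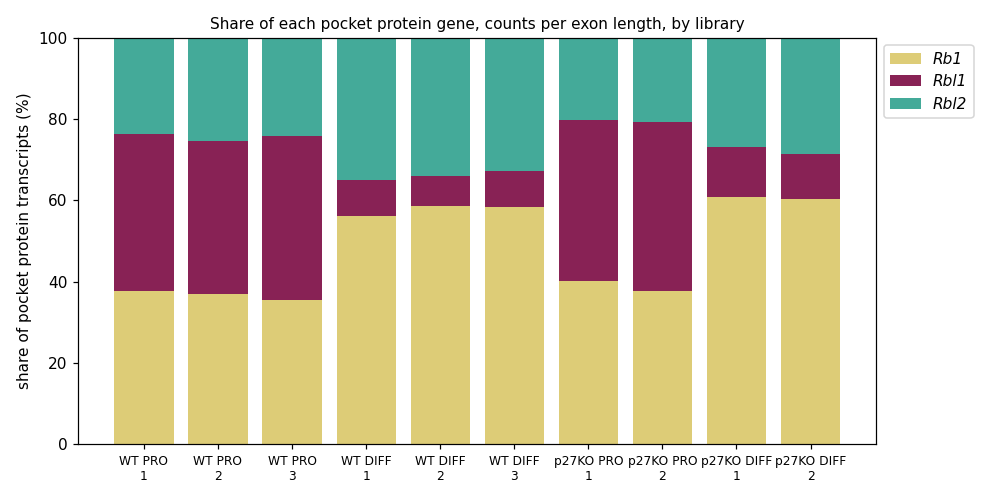
Share (percent) of Rb1, Rbl1 and Rbl2 in the summed counts per kilobase of merged exons of the 3 genes, as 1 stacked bar for each of the 10 libraries. The Rbl1 segment spans 37.8% to 41.8% in PRO libraries and 7.28% to 12.3% in DIFF libraries.

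Within the MuvB core, the subunits did not move together. Lin52 (ENSMUSG00000085793; chromosome 12, 84451422 to 84546145, plus strand) encodes the subunit whose phosphorylated form docks p107 or p130. Its level was 14.3, 15.0 and 14.2 CPM in WT PRO and 27.9, 29.8 and 33.0 CPM in WT DIFF. In libraries labelled p27KO it was 14.4 and 13.4 CPM, and 28.8 and 31.3 CPM. Stages were apart and genotypes overlapped. Lin52 rose by a log2 fold change of 1.05 in WT (SE 0.09, 2.07-fold, adjusted p = 6.4e-06, edgeR) and of 1.09 in the libraries labelled p27KO (SE 0.11, adjusted p = 3.8e-05, edgeR).

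Lin9 (ENSMUSG00000058729; chromosome 1, 180641150 to 180690694, plus strand) encodes a scaffold of the core that is needed to bind B-MYB. It was at 34.3, 29.6 and 38.2 CPM in WT PRO and at 13.9, 13.1 and 17.4 CPM in WT DIFF. The libraries labelled p27KO were at 45.5 and 42.0 CPM in PRO and at 19.5 and 23.3 CPM in DIFF, above WT at both stages without overlap. The log2 fold change of Lin9 was -1.21 in WT (SE 0.14, adjusted p = 3.1e-05, edgeR) and -1.05 in the libraries labelled p27KO (SE 0.16, adjusted p = 4.3e-04, edgeR). Lin54 (ENSMUSG00000035310; chromosome 5, 100441918 to 100500639, minus strand) encodes the subunit that reads the cell cycle homology region in DNA. Its level was 49.5, 48.9 and 54.7 CPM in WT PRO and 19.0, 22.5 and 21.0 CPM in WT DIFF. Levels of Lin54 in libraries labelled p27KO were 51.2 and 53.6 CPM, then 24.6 and 22.4 CPM, so that only the stages were apart. The log2 fold change was -1.30 in WT (SE 0.10, adjusted p = 2.5e-06, edgeR) and -1.18 in those labelled p27KO (SE 0.12, adjusted p = 3.3e-05, edgeR).

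Rbbp4 (ENSMUSG00000057236; chromosome 4, 129307100 to 129335370, minus strand) encodes a histone chaperone that also serves in other chromatin complexes. It was at 366, 389 and 408 CPM in WT PRO and at 237, 222 and 259 CPM in WT DIFF. The libraries labelled p27KO had 440.4 and 324 CPM in PRO, and 231 and 243 CPM in DIFF. Its log2 fold change was the smallest of those called, at -0.71 in both genotypes (SE 0.11 and 0.13, adjusted p = 2.3e-04 and 0.00117, edgeR). Lin37 (ENSMUSG00000036845; chromosome 7, 30555441 to 30559838, minus strand) encodes a subunit needed for repression by DREAM. Its levels were 9.59, 9.17 and 7.98 CPM in WT PRO, 8.55, 7.25 and 7.67 CPM in WT DIFF, and 7.60 to 8.31 CPM in the 4 libraries labelled p27KO. The stages overlapped within each genotype, while all WT PRO libraries were above both p27KO DIFF libraries. Log2 fold changes were -0.20 (95% interval -0.49 to 0.09, adjusted p = 0.193, edgeR) in WT and -0.07 (-0.43 to 0.28, adjusted p = 0.709, edgeR) for p27KO. Exons of Hspb6, at 3.69 to 5.16 CPM over the group means, overlap Lin37 on the opposite strand.

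Mybl2 (ENSMUSG00000017861; chromosome 2, 163054687 to 163084688, plus strand) encodes B-MYB, which joins MuvB in S phase. Its level was 36.5, 38.1 and 40.0 CPM in WT PRO and 2.60, 1.66 and 2.45 CPM in WT DIFF. In the libraries labelled p27KO it was 40.2 and 36.9 CPM in PRO and 4.16 and 5.13 CPM in DIFF. The PRO libraries of both genotypes overlapped, whereas both DIFF libraries labelled p27KO were above all 3 of WT. WT cells had a log2 fold change of -4.11 (SE 0.16, 17.3-fold lower, adjusted p = 6.7e-08, edgeR). Those labelled p27KO had one of -3.08 (SE 0.18, 8.45-fold lower, adjusted p = 2.0e-06, edgeR).

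Foxm1 (ENSMUSG00000001517; chromosome 6, 128362967 to 128376146, plus strand) encodes the forkhead factor that drives mitotic genes together with B-MYB and MuvB. It was at 135, 139 and 134 CPM in WT PRO and at 15.4, 12.4 and 15.9 CPM in WT DIFF. Libraries labelled p27KO were at 114 and 156 CPM in PRO, on either side of the WT values, and at 38.3 and 34.0 CPM in DIFF, above all WT values. Its log2 fold change was -3.24 in WT (SE 0.14, 9.44-fold lower, adjusted p = 1.0e-07, edgeR). For p27KO it was -1.93 (SE 0.16, 3.81-fold lower, adjusted p = 1.2e-05, edgeR). Between WT libraries of the same replicate number, the log2 ratio of DIFF to PRO was -3.13, -3.50 and -3.08 for Foxm1 and -3.81, -4.52 and -4.03 for Mybl2.

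**Figure D3:**
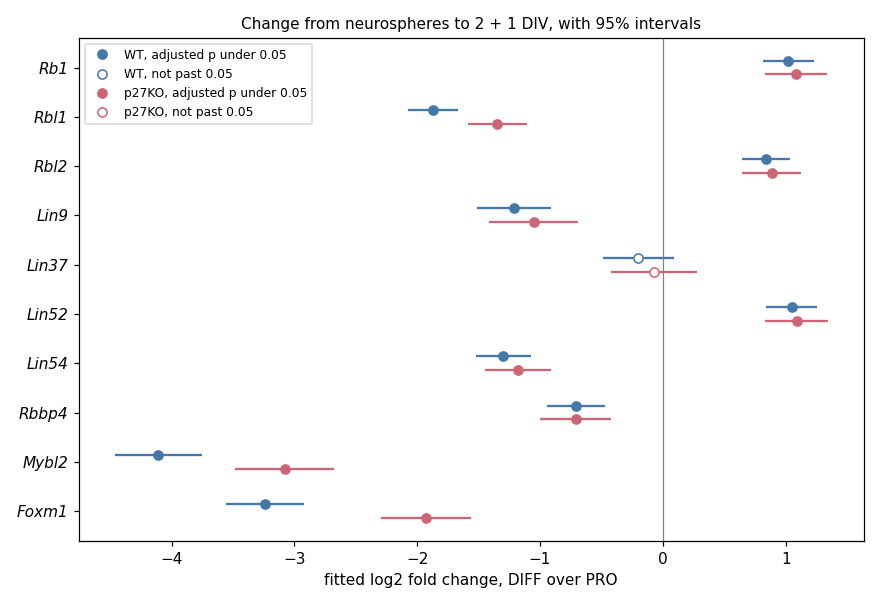
Fitted log2 fold change from PRO to DIFF for each of the 10 genes in WT and p27KO, with 95% intervals; filled points have an adjusted p under 0.05. Mybl2 and Foxm1 lie farthest left, from -4.11 to -1.93, with the p27KO point to the right of the WT point, and Rb1, Rbl2 and Lin52 lie right of 0.

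Per kilobase of merged exons, the order of the members' levels changed with stage. In WT PRO, Rbbp4 led at 44.3 ± 2.45 CPM per kilobase, followed by Foxm1 at 23.7 ± 0.50 and Rbl1 at 12.0 ± 0.72 (SD, n = 3). Rbl1 overlapped with the next gene, Rb1, and the lowest pair, Lin9 and Lin52, overlapped as well. In WT DIFF the order was Rbbp4 at 27.4 ± 2.11, Rb1 at 22.9 ± 2.32, Rbl2 at 13.4 ± 0.85 and Lin52 at 9.73 ± 0.83, none of which overlapped with its neighbour, and Mybl2 was lowest at 0.482 ± 0.109 CPM per kilobase (SD, n = 3). Foxm1 went from rank 2 to rank 8. In p27KO DIFF, Rb1 ranked first at 28.5 ± 0.45 and Foxm1 ranked 5 at 6.28 ± 0.53 CPM per kilobase (SD, n = 2). Ranks 8 to 10 held Lin54, Lin9 and Mybl2.

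Between genotypes at 2 + 1 DIV, Foxm1, Mybl2 and Rbl1 were higher in the libraries labelled p27KO. These are 3 of 10 members, where 1.91% of all tested genes were called higher and 0.124% lower, and no member was lower. Foxm1 was higher by 1.33 on the log2 scale (SE 0.15, 2.51-fold, adjusted p = 0.00154, edgeR), Mybl2 by 1.07 (SE 0.17, 2.10-fold, adjusted p = 0.0101, edgeR) and Rbl1 by 0.75 (SE 0.10, 1.69-fold, adjusted p = 0.00323, edgeR). For all 3 genes, both DIFF libraries labelled p27KO were above all 3 WT DIFF libraries. How many of all tested genes were apart in this way was not counted. The summed astrocyte markers were also apart in these groups, at 1025 to 1045 CPM against 477 to 910 CPM in WT. Taken singly, only Aqp4 (0.73) was apart. S100b was lower (-0.85, groups overlapping), and none of the 4 was called. The part of these markers in the result was not tested. Sums overlapped for the NSC/NPC markers, at 1659 to 1700 and 1621 to 1794 CPM, and for the 4 fibroblast and mural markers, at 37.3 to 98.6 and 29.8 to 68.4 CPM. With only the 2 DIFF groups in the fit, Foxm1 alone remained called, and Rbl1 and Mybl2 had an adjusted p of 0.0717 and 0.175 (edgeR). Without replicate 1 of p27KO DIFF the Rbl1 difference was 0.66 (adjusted p = 0.0557, edgeR), and without replicate 2 that of Mybl2 was 0.93 (adjusted p = 0.120, edgeR).

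Lin9 and Rb1 did not pass the threshold. Their differences were 0.55 (95% interval 0.21 to 0.88, adjusted p = 0.121, edgeR) and 0.33 (0.10 to 0.55, adjusted p = 0.167, edgeR). Both genes were higher in each DIFF library labelled p27KO than in any WT DIFF library, an ordering whose share over all tested genes was not counted. With the replicate number as a block, the Lin9 difference was 0.66 and passed (adjusted p = 0.0363, edgeR). That block gives libraries of both genotypes with the same number a shared term, and the labels do not tie cultures across genotypes. With the p27KO numbers crossed, added after seeing the data, Lin9 was called too (0.65, adjusted p = 0.0167, edgeR). The Lin9 call with this block therefore rests on no known pairing. The remaining 5 genes had intervals that span 0. These ran from -0.06 to 0.43 for Lin54, from -0.22 to 0.23 for Lin52, from -0.26 to 0.27 for Rbbp4, from -0.33 to 0.31 for Lin37 and from -0.25 to 0.18 for Rbl2, on the log2 scale.

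In neurospheres, none of the members was called between genotypes by edgeR, where 0.0156% of all tested genes were. At an unadjusted p under 0.05, which 4.69% of all genes reached, there were 3, Lin9 (0.39), Rb1 (0.26) and Rbl1 (0.23). Each was higher in both neurosphere libraries labelled p27KO than in any WT neurosphere library, and the share of all genes apart in this way was not counted. DESeq2 gave no call either. The values for Foxm1 and Mybl2 were 0.02 (95% interval -0.30 to 0.34) and 0.04 (-0.29 to 0.37). This comparison shares the p27KO and WT neurosphere libraries with the stage changes.

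**Figure D4:**
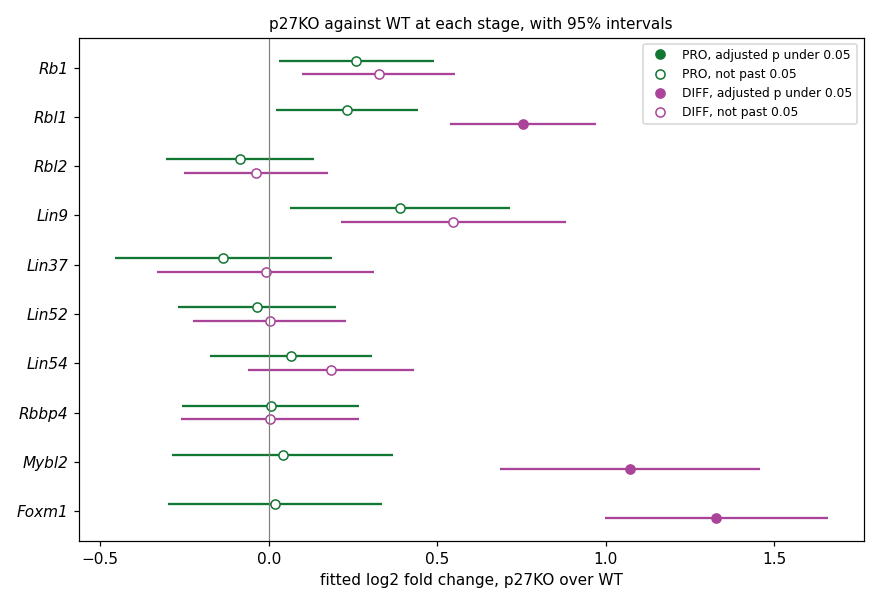
Fitted log2 fold change of p27KO over WT in PRO and in DIFF for each of the 10 genes, with 95% intervals; filled points have an adjusted p under 0.05. Foxm1 (1.33), Mybl2 (1.07) and Rbl1 (0.75) are filled in DIFF, and no PRO point is filled.

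The stage changes of both genotypes were then compared directly by their difference (the interaction). Foxm1 was the only member called, with a difference of 1.31 (SE 0.21, adjusted p = 0.0340, edgeR), where 0.389% of all tested genes were called. The fall of Foxm1 was thus smaller in the libraries labelled p27KO. With the replicate number as a block, the difference was 1.32 and the call was lost (adjusted p = 0.0722, edgeR), and with blocks nested in genotype it was 1.33 (adjusted p = 0.102, edgeR). The call was also lost without any single library other than replicates 1 and 2 of WT DIFF, with values of 1.09 to 1.57 over the libraries left out. Mybl2 (1.03, SE 0.23, adjusted p = 0.154, edgeR) and Rbl1 (0.52, SE 0.14, adjusted p = 0.291, edgeR) had an unadjusted p under 0.05 only. DESeq2 called Mybl2 as well (1.05, adjusted p = 0.00327). For the other 7 genes the difference was between -0.003 and 0.16 on the log2 scale.

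Across the 10 libraries, Mybl2 and Foxm1 followed each other on the log2(CPM + 1) scale (Pearson's r = 0.983), and Rbl1 followed Foxm1 (0.991). Rb1 and Rbl2 rose together (0.938), and Rbl1 ran opposite to Rbl2 (-0.949). Lin37 had coefficients of -0.65 to 0.53 with the other members. These points share the difference between stages, and the coefficients are given as a description.

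Partners of the members were examined as lists chosen by function, with earlier results of these data known. Of the 5 other components of the repressor complex, E2f4, the main E2F of DREAM, was DOWN in WT with a log2 fold change of -0.85 (adjusted p = 0.00132, edgeR), as were its DP partner Tfdp1 (-1.73) and Rbbp7, the relative of Rbbp4 (-1.21). Tfdp2 was UP (0.46), and E2f5 had a value of 0.09 (adjusted p = 0.559, edgeR). In the libraries labelled p27KO the same 3 fell, and Tfdp2 (0.64) and E2f5 (0.45, adjusted p = 0.0375, edgeR) were called UP. The E2f5 call was lost with the replicate block and with blocks nested in genotype. It was also lost with no filter and with one that kept genes at 1 CPM or more in at least 4 libraries. Leaving out either DIFF replicate or replicate 2 of PRO of p27KO lost it as well. All 3 activator E2Fs, which RB binds, were DOWN in both genotypes, beside 33.9% and 30.2% of all genes. Their log2 fold changes in WT were -4.00 for E2f1, -4.56 for E2f2 and -1.34 for E2f3. The MYB relatives Myb and Mybl1 were DOWN too, at -2.39 and -1.09. At 2 + 1 DIV, E2f2 (1.40, adjusted p = 0.00298, edgeR) and Mybl1 (0.85, adjusted p = 0.0149, edgeR) were higher in the libraries labelled p27KO, calls that were both lost with only the groups compared. The Mybl1 call was also lost without replicate 1 of WT DIFF and without either p27KO DIFF library.

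Among the 9 cyclins and CDKs that phosphorylate pocket proteins, 8 were DOWN in both genotypes, beside 33.9% and 30.2% of all genes. Cdk6 was not called (0.15 in WT). Cyclin D1 (Ccnd1) changed the most, with -5.89 in WT and -5.97 in the libraries labelled p27KO. Cdk2 changed by -1.75 and -1.78. Cyclin A2 (Ccna2) changed by -3.57 and -1.85, a difference of 1.72 between genotypes (adjusted p = 0.0230, edgeR), the only one of the 9 called, and the call was lost with blocks nested in genotype and without any single library except those of WT DIFF. The LIN52 kinase axis holds DYRK1A, DYRK1B and the Hippo kinases LATS and MST, which act on LIN52 or upstream. Of its 6 genes, 4 were UP in WT and 3 in the libraries labelled p27KO, beside 33.5% and 27.5% of all genes, and none was DOWN. One of the 6, the MST gene Stk4 (-0.15 in WT), was called DOWN in WT by DESeq2, with a filter that kept genes at 1 CPM or more in at least 4 libraries, and without either p27KO PRO library. Dyrk1b rose by 1.35 and 1.49 and Lats2 by 1.04 and 1.26. The WT calls of Dyrk1a (0.21) and Lats1 (0.17) were lost with the replicate block, with blocks nested in genotype and with only the groups compared. They were also lost with the filter just named, with no filter and in several fits that left out a library.

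The genes that DREAM is known to repress fell with its activator partners. Both target lists were chosen with earlier results of these data known, so their counts are a description of these lists. All 30 early (G1/S) targets were DOWN in both genotypes, with a median log2 fold change of -3.04 in WT and -2.41 in the libraries labelled p27KO. Of the 30 late (G2/M) targets, which B-MYB and FOXM1 activate, 29 were DOWN in WT (median -3.26) and 28 in the libraries labelled p27KO (median -1.66). Over all tested genes, 33.9% and 30.2% were called DOWN, and the median was -0.0019 and -0.029, in WT and p27KO in turn. Among early targets with the highest mean level, Rrm1 (ribonucleotide reductase) changed by -2.23 and -1.69, Dnmt1 (maintenance DNA methylation) by -2.61 and -2.36 and Pcna (the replication clamp) by -2.88 and -2.42, in WT and p27KO in turn. Among late targets, the proliferation marker Mki67 changed by -3.13 and -1.48, Top2a (topoisomerase II) by -3.36 and -1.65 and Cenpf (a kinetochore protein) by -2.16 and -0.37, the last not called in the libraries labelled p27KO (adjusted p = 0.175, edgeR).

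**Figure D5:**
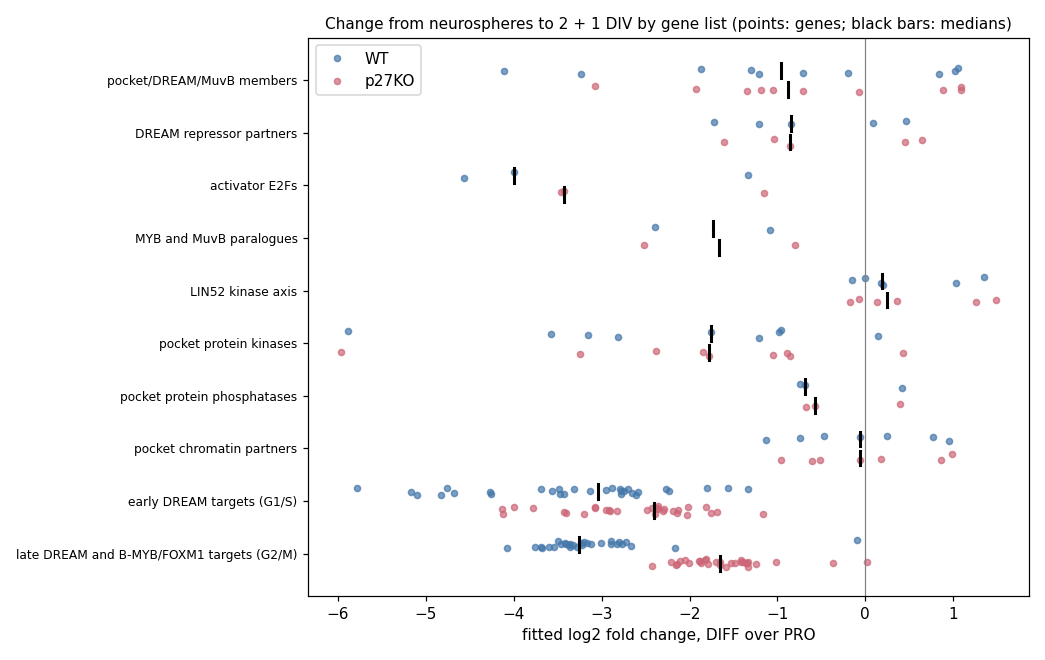
Fitted log2 fold change from PRO to DIFF of each gene of the members and of 9 lists of partners and targets, in WT and p27KO, with black bars at the list medians. The late target median is -3.26 in WT and -1.66 in p27KO, and the early target medians are -3.04 and -2.41.

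At 2 + 1 DIV, 28 of 30 late and 18 of 30 early targets were higher in the libraries labelled p27KO, beside 1.91% of all tested genes. Since earlier results of these data were known when the lists were chosen, these counts describe the lists only. The late and early lists had median differences of 1.59 and 0.71 on the log2 scale, against -0.015 over all genes. Cenpf was at 64.5, 38.7 and 68.1 CPM in WT DIFF and at 263 and 239.6 CPM in the libraries labelled p27KO. Without replicate 1 of p27KO DIFF these counts were 9 late and 8 early targets, without replicate 2 there were 5 early targets, and with only the groups compared they were 3 and 2. In neurospheres, none of the 60 targets was called by edgeR and the medians were 0.03 and 0.16. The stage changes differed between genotypes for 8 late targets (median difference 1.57) and 3 early ones (0.56), beside 0.389% of all tested genes. Mki67 (1.65, adjusted p = 0.0392, edgeR) and Cenpf (1.79, adjusted p = 0.0387, edgeR) were among the targets called. DESeq2 called 28 and 10, and with blocks nested in genotype the late count was 5. The late count was 19 without replicate 1 and 26 without replicate 2 of WT DIFF, and 0 without any single library of WT PRO or of those labelled p27KO. The early count was 0 without replicate 2 or 3 of WT PRO or any single library labelled p27KO. Beside them stand the member differences of 1.31 for Foxm1 and 1.03 for Mybl2 given above.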

How the data were processed

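The authors made cDNA with the Ovation RNA-seq System V2 and libraries with the Ovation Ultralow System V2, which the sources used here do not state to be stranded. The submitters' processing notes name FastQC, Trimmomatic, cutadapt, STAR, RSEM and GRCm38, with versions not given in the sources used here. The deposited values are RSEM expected counts per gene, given as whole numbers and not normalized. Columns were mapped to samples by title. Where nothing says that replicates came from separate animals, p-values measure only the spread between these samples.

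A gene was discarded if 4 or more libraries were under 1 CPM. After TMM scaling, counts were fitted with a mean per group (4 groups) in edgeR 4.0.16 (R 4.3.3, robust quasi-likelihood, two-sided, Benjamini-Hochberg over 12859 genes, threshold 0.05), with SE = |log2 fold change| / √F and 95% intervals. CPM values carry no TMM factor. On average over genes, the replicate spread was larger than that of counting. This need not hold for genes with few counts, such as Mybl2 with 51, 40 and 62 counts in WT DIFF. The study used DESeq2, which was an alternative (1.42.0), beside size factors, filters, groups fitted, replicate blocks and each library left out. The procedure was tested on simulated data.

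Replicates were not copies (chi-square per gene 14.8 to 64.5). Across genes, deviations from group means correlated at 0.248, 0.301 and 0.395 for same-numbered WT libraries of both stages and at -0.221 to -0.0874 otherwise, so by this check the numbers pair the WT libraries. The main model has no pairing, which enters only the replicate blocks. For same-numbered p27KO libraries the value was -0.138.

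Members, lists and motifs were chosen with earlier results of these data known. All members were named, the genes of lists of up to 9 genes, the 3 targets with the highest mean CPM, and for each member the 3 genes nearest to it by correlation. Gene positions follow GENCODE M21 (GRCm38), and sequences are from RefSeq (GRCm38.p6).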

Additional observations from a re-analysis of the deposited data

Results flagged for a closer look

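The change of Foxm1 from neurospheres to 2 + 1 DIV differed between genotypes by 1.31 on the log2 scale (SE 0.21, adjusted p = 0.0340, edgeR), and this difference itself was tested. The call was lost with the replicate block (adjusted p = 0.0722, edgeR), with blocks nested in genotype (adjusted p = 0.102, edgeR) and in 8 of the 10 fits that each left out a library. In both DIFF libraries labelled p27KO Foxm1 was above all WT DIFF libraries, and its PRO values of 114 and 156 CPM lay on either side of those of WT. Groups of 2 or 3 libraries were too small for a test of outlying values within a group.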

How the results depend on the processing

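All member calls of both stage changes kept direction and call under every alternative run. At 2 + 1 DIV, the count of members higher for p27KO was 3, and 1 with only the groups compared. That count also changed where a p27KO DIFF library was left out and where Lin9 was called, as described for these genes. In the difference of stage changes it was 1, and 2 with DESeq2, 0 with either replicate block and 0 to 1 over the leave-one-out fits. With the p27KO numbers crossed, added after seeing the data, that count was 0. The Foxm1 difference was 1.32 with the replicate block. Directions turned only for values near 0 that were not called. For the Rbbp4 difference of stage changes (-0.003), values were 0.0139 with size factors, 0.0138 with DESeq2, 0.0091 with no filter, 0.0048 with the replicate block, 0.011 with the nested and 0.0054 with the crossed block, and -0.19 to 0.21 over leave-one-out fits. For Lin37 between genotypes at 2 + 1 DIV they were 0.0082 with size factors, 0.0095 with DESeq2 and 0.0099 with no filter. Over leave-one-out fits, the range was -0.16 to 0.013 for the Lin37 stage change of p27KO. For the difference of stage changes it was -0.019 to 0.14 for Rb1, -0.012 to 0.11 for Rbl2 and -0.022 to 0.094 for Lin52. Between genotypes at 2 + 1 DIV it was -0.088 to 0.026 for Rbl2, -0.045 to 0.052 for Lin37, -0.058 to 0.059 for Lin52 and -0.033 to 0.052 for Rbbp4. In neurospheres it was -0.21 to 0.19 for Rbbp4, -0.0013 to 0.081 for Mybl2, -0.25 to 0.24 for Foxm1 and -0.0030 to 0.064 for the median of late targets. Sensitivity to 1 library limits every statement on genotype, since 2 libraries carry each p27KO group. Lin9 between genotypes at 2 + 1 DIV was called with DESeq2 (0.56, adjusted p = 0.0319) and with the replicate block. The block ties libraries of both genotypes by number alone, and it changed no other member call than those of Lin9 and Foxm1. The nested block gives no genotype comparison and was run for the stage changes and their difference. The cause of these changes was not tested.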

Other observations

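Genes whose log2(CPM + 1) values ran most like those of each member over the 10 libraries were sought among all genes tested, as a description of points that share the difference between stages. For Mybl2 the nearest were Cdc6 and Mcm2, which license replication origins, and the DNA ligase Lig1, each at a Pearson's r of 0.999. For Foxm1 they were Iqgap3 (0.998) and the chromosomal passenger genes Incenp (0.997) and Birc5 (0.997), and for Rbl1 the condensin gene Ncaph (0.997), Bard1 (0.997) and Tmem209 (0.997). Those of genes that rose at 2 + 1 DIV were Zkscan8 (0.995), Cep162 (0.994) and N4bp2 (0.994) for Rb1, Dclre1c (0.996), Csmd1 (0.996) and Zfp799 (0.996) for Rbl2, and Fez2 (0.997), Rtn3 (0.997) and Aktip (0.996) for Lin52. Among the core genes that fell, Agap1 (0.995), Ints7 (0.995) and Hdlbp (0.994) were nearest to Lin9, Adam12 (0.997), Gabpb1 (0.996) and Spry4 (0.996) to Lin54, and Tomm20 (0.996), Psmc5 (0.995) and Tmx1 (0.995) to Rbbp4. Lin37, which was not called at either stage change, had lower values, with Gm9755 (0.941), Faap20 (0.926) and Ercc1 (0.922).

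Chromatin partners of pocket proteins were split in direction. In WT, Hdac1 (-0.47), Hdac2 (-0.74) and the histone methyltransferase gene Suv39h1 (-1.13) were DOWN on the log2 scale, and the histone demethylase gene Kdm5a (0.77), Arid4b (0.95) and Sin3b (0.24) were UP, while Arid4a had a value of -0.06. In the libraries labelled p27KO the calls were the same except for Sin3b (0.18, adjusted p = 0.171, edgeR). Of the catalytic subunits of protein phosphatase 1, which dephosphorylates pocket proteins, Ppp1ca (-0.69) and Ppp1cc (-0.74) were DOWN and Ppp1cb (0.42) was UP in WT. Ppp1cb was also called UP in the libraries labelled p27KO (0.40, adjusted p = 0.0430, edgeR), and that call was lost in 9 of the other fits.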
